A study of Mus musculus with 6 samples.

Results

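The genes described here are 10 members of the route by which fat cells make triglyceride, the storage fat, from glycerol 3-phosphate and fatty acids. They are Pck1, Gpd1, Gpam, Agpat2, Agpat3, Lpin1, Dgat1, Dgat2, Bscl2 and Fitm2, taken by exact gene symbol, and all 10 were found among the 36144 rows of the deposited table. The table comes from sequencing the poly-A RNA of white fat from under the skin of mice, in 3 libraries titled Tumor and 3 titled WT. The labels disagree on what the groups are. The genotype label calls the Tumor libraries full-body knockouts of Msra and the WT libraries wild type for Msra, and all 6 carry the label of an orthotopic transplant. The series text speaks both of pancreatic ductal adenocarcinoma cells placed in the pancreas of wild-type and knockout hosts, with fat taken 4 to 5 weeks after surgery, and of tumour-bearing mice against tumour-free ones. The sources used here give no age, strain or sex and do not say whether a tube holds fat of 1 animal.

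Triglyceride is built on a backbone of glycerol 3-phosphate. White fat makes that backbone from glucose or, when glucose is scarce, from pyruvate by way of Pck1, a route called glyceroneogenesis. Either way the last step is that of Gpd1. Acyltransferases of the GPAT and AGPAT families add a fatty acid each and give phosphatidic acid, lipins remove the phosphate to leave diacylglycerol, and Dgat1 or Dgat2 adds the last fatty acid. The product gathers between the leaflets of the endoplasmic reticulum membrane, where the proteins encoded by Bscl2 and Fitm2 help it to form and bud as a lipid droplet. Loss of AGPAT2 or of BSCL2 causes congenital generalised lipodystrophy in humans, a near absence of fat.

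Values are TPM, a share of all RNA molecules after division by transcript length, so levels may be compared between genes of a library, and the number of reads behind them is not known. Msra itself measured 52.9, 40.0 and 26.9 TPM in the Tumor-labelled libraries, the knockouts of the genotype label, and 51.1, 59.1 and 56.3 TPM in the WT-labelled ones. The RNA thus did not show the loss that the genotype label implies, and every direction below is drawn from the titles. The libraries also differed in the cells they held. The summed level of 8 B and plasma cell markers was 8.20 TPM in Tumor replicate 1 and 7.80 TPM in WT replicate 3, which were poor in lymphoid RNA, and 849 to 2282 TPM in the other 4. The sum of 12 adipocyte markers, Adipoq and Plin1 among them, was mostly Cfd and Fabp4. It was 46512, 34589 and 13204 TPM in Tumor replicates 1 to 3 and 31709, 37177 and 56742 TPM in WT replicates 1 to 3. Summed markers of skeletal muscle were 2018, 709 and 2435 TPM in the Tumor-labelled libraries and 110, 2832 and 179 TPM in the WT-labelled ones. All 8 of these markers had a positive log2 difference, as had 10856 of the 14144 genes tested. The median of the 8 was 3.40, against 0.23 over all genes tested, and the difference of Ckm, 4.94, was the largest of all genes. All 6 adipose progenitor markers and 5 of 7 macrophage markers also had a positive difference, with overlapping sums. In the macrophage genes Csf1r and Cd68 every Tumor-labelled library lay above every WT-labelled library, as for 11.8% of all genes tested. Csf1r measured 129, 79.2 and 83.4 TPM in the Tumor-labelled libraries and 55.7, 51.0 and 66.8 TPM in the WT-labelled ones (limma adjusted p = 0.737, unadjusted p = 0.024). The part of these cells in the results was not tested. The 8 mammary and skin epithelial markers summed to 20.1 TPM at most, and Wap, a milk protein gene, was listed at 0 in all 6.

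All 10 genes were expressed in every library, and all 10 passed the filter of at least 1 TPM in at least 3 libraries. Their sum was 3280, 3101 and 1299 TPM in the Tumor-labelled libraries and 4320, 4589 and 6798 TPM in the WT-labelled ones, so that the groups did not overlap. All 10 had a negative log2 difference, Tumor minus WT, against 23.2% of the 14144 genes tested. So had 11 of the 12 adipocyte markers, with a median of -0.47 and overlapping groups. With median-ratio factors 10 of 10 were negative, against 44.6% of all genes, and with upper-quartile factors 10 of 10, against 42.0%. Without Tumor replicate 3 there were 8, against 23.1%. Without WT replicate 1 or with 1 of the 3 covariates for cell content 9 were, against 22.7% to 25.7%. Relative to the adipocyte markers 7 were negative, against 5.44% of all genes. That scale raises every gene's difference by the same amount, and the median of all genes was 0.66 there. The markers' own mean cannot differ between groups on it, so the 5.44% is no measure for genes of adipocytes. On the scale used, the median log2 difference of the 10 genes was -0.76, against a median of 0.23 over all genes tested. None passed the test. With limma 0 of the 10 had an adjusted p below 0.05, as did 0% of all genes tested, and 2 had an unadjusted p below 0.05, as did 771 of all genes, or 5.45%. In 4 of the 10 (Gpd1, Agpat2, Lpin1 and Dgat2) every Tumor-labelled library lay below every WT-labelled library, as for 3.24% of all genes tested. An exact two-sided permutation test of 3 against 3 libraries gives such a gene a p of 0.1, the smallest it can give. Less of a transcript in bulk tissue can be fewer adipocytes or less RNA in each, which cannot be told apart here. Without Tumor replicate 3, the library with the lowest adipocyte marker sum, the median of the 10 was -0.39.

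**Figure D1:**
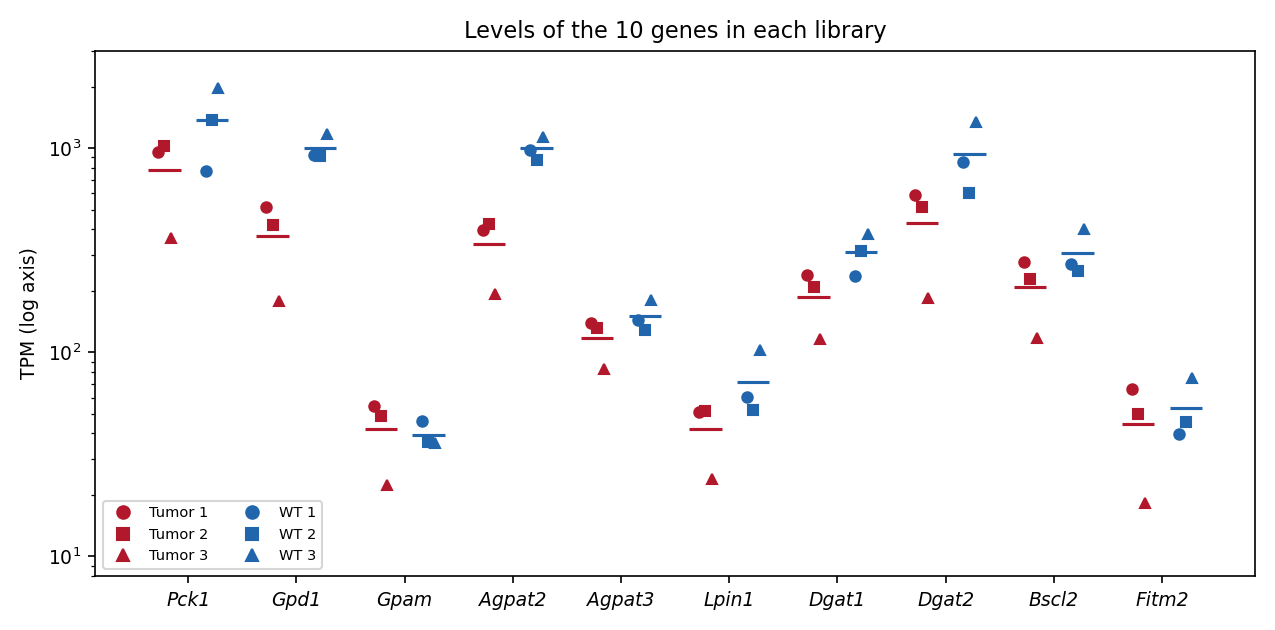
TPM of the 10 genes on a log axis, in the order of the pathway, with 1 point for each library (Tumor in red on the left of each gene, WT in blue on the right, shape by replicate number) and a bar at the group mean. The highest Tumor points of Gpd1 and Agpat2, 514 and 424 TPM, lie below the lowest WT points, 914 and 877 TPM, while the points of Gpam and Fitm2 overlap.

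The supply of glycerol 3-phosphate is the part of the route with the most abundant member. Pck1 encodes the cytosolic phosphoenolpyruvate carboxykinase and lies on chromosome 2 from 173153048 to 173159273, on the plus strand (GRCm38, GENCODE M21, as for all positions here). It measured 957, 1024 and 361 TPM in the Tumor-labelled libraries and 770, 1372 and 1967 TPM in the WT-labelled ones. It had the highest mean of the 10 genes and the 131st highest of the table. The groups overlapped, since WT replicate 1 lay below Tumor replicates 1 and 2. The log2 difference was -0.85 (SE 0.54, limma adjusted p = 0.737), with a 95% interval of -2.18 to 0.47. Without Tumor replicate 3 it was -0.37 and without WT replicate 3 -0.54. Pck1 made up 98.1%, 97.2% and 92.0% of the summed TPM of the cytosolic and mitochondrial carboxykinase genes, Pck1 and Pck2, in the Tumor-labelled libraries and 97.6%, 98.7% and 99.3% in the WT-labelled ones.

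Gpd1 encodes the cytosolic glycerol-3-phosphate dehydrogenase that makes the backbone from the glycolytic intermediate dihydroxyacetone phosphate. The gene lies on chromosome 15 from 99717515 to 99725005, on the plus strand. Gpd1 measured 514, 422 and 177 TPM in the Tumor-labelled libraries and 924, 914 and 1178 TPM in the WT-labelled ones. The highest Tumor-labelled library lay well below the lowest WT-labelled one. The Tumor mean was 36.9% of the WT mean, and the log2 difference was -1.56 (SE 0.43, limma adjusted p = 0.737, unadjusted p = 0.011). Across 20 alternative settings the difference ran from -1.86 to -1.10 and was negative in all 20, with limma adjusted p from 0.238 to 0.999. Settings that change only limma's handling of variance, the filter or a replicate block cannot move the difference, so they add nothing to that count. Gpd2, the mitochondrial enzyme that consumes glycerol 3-phosphate, showed the same separation at lower levels, with 15.6, 20.4 and 13.2 TPM in the Tumor-labelled libraries and 40.6, 32.6 and 32.5 TPM in the WT-labelled ones. Its log2 difference was -1.07 (SE 0.21, limma adjusted p = 0.737). The related gene Gpd1l went the other way in value, averaging 24.7 ± 5.93 TPM in the Tumor-labelled libraries and 19.5 ± 1.17 TPM in the WT-labelled ones (SD, n = 3 each), with overlapping groups.

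Of the 10 genes Gpam, of the first acylation, had the smallest difference. Gpam encodes the mitochondrial glycerol-3-phosphate acyltransferase and lies on chromosome 19 from 55067268 to 55127238, on the minus strand. It measured 54.5, 48.8 and 22.4 TPM in the Tumor-labelled libraries and 46.1, 36.4 and 35.9 TPM in the WT-labelled ones. Tumor replicates 1 and 2 held more Gpam than any WT-labelled library, and Tumor replicate 3 less than any. The log2 difference was -0.00044 (SE 0.36, limma adjusted p = 1.00), and its 95% interval of -0.87 to 0.87 does not exclude a change of the size seen in Lpin1 or Dgat1. The enzymes of the endoplasmic reticulum membrane that do the same reaction differed from one another in value. Gpat3 measured 38.4, 33.4 and 13.9 TPM in the Tumor-labelled libraries and 58.3, 41.6 and 82.2 TPM in the WT-labelled ones, without overlap. The Gpat3 difference was -1.13 on the log2 scale (SE 0.44, limma adjusted p = 0.737). Gpat4 averaged 49.4 ± 13.4 TPM in the Tumor-labelled libraries and 48.8 ± 6.26 TPM in the WT-labelled ones (SD, n = 3 each). Of the summed TPM of Gpam, Gpat2, Gpat3 and Gpat4, Gpam took 36.6%, 34.8% and 31.6% in the Tumor-labelled libraries and 31.0%, 29.3% and 20.6% in the WT-labelled ones. Gpat3 took 25.8%, 23.7% and 19.6% in the Tumor-labelled libraries and 39.2%, 33.4% and 47.2% in the WT-labelled ones.

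The second acylation showed the largest difference of the 10 genes. Agpat2, the AGPAT that adipose tissue depends on, lies on chromosome 2 from 26593057 to 26604417, on the minus strand. It measured 397, 424 and 194 TPM in the Tumor-labelled libraries and 978, 877 and 1136 TPM in the WT-labelled ones. The groups lay far apart, and the Tumor mean was 33.9% of the WT mean. The log2 difference was -1.63 (SE 0.35, limma adjusted p = 0.737, unadjusted p = 0.0034). It was negative in all 20 alternative settings, from -1.85 to -1.21, with limma adjusted p from 0.211 to 0.991. As for Gpd1, some of these settings cannot move the difference. Agpat3, a broadly expressed relative on chromosome 10 from 78269178 to 78352489 on the minus strand, measured 140, 131 and 82.5 TPM in the Tumor-labelled libraries and 144, 129 and 180 TPM in the WT-labelled ones. Its groups overlapped and its log2 difference was -0.38 (SE 0.26, limma adjusted p = 0.737), or -0.14 without Tumor replicate 3 and -0.25 without WT replicate 3.

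The 2 genes stood in a different proportion in the groups. There were 2.84, 3.23 and 2.35 Agpat2 transcripts for each of Agpat3 in the Tumor-labelled libraries and 6.78, 6.80 and 6.32 in the WT-labelled ones. Of the summed TPM of Agpat1 to Agpat5, Agpat2 took 62.0%, 66.1% and 51.7% in the Tumor-labelled libraries and 80.1%, 80.1% and 80.4% in the WT-labelled ones. The WT shares were nearly identical, and the Tumor shares varied more. The share averaged 59.9% ± 7.43 in the Tumor-labelled libraries and 80.2% ± 0.201 in the WT-labelled ones (SD, n = 3 each), and the difference of -20.3 points lay between -23.4 and -16.2 with any 1 library left out. Agpat1, also broadly expressed, averaged 67.5 ± 4.79 TPM in the Tumor-labelled libraries and 73.2 ± 3.78 TPM in the WT-labelled ones. These proportions are a description, and the choice to give the Agpat2 to Agpat3 ratio was made after the values were seen.

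**Figure D2:**
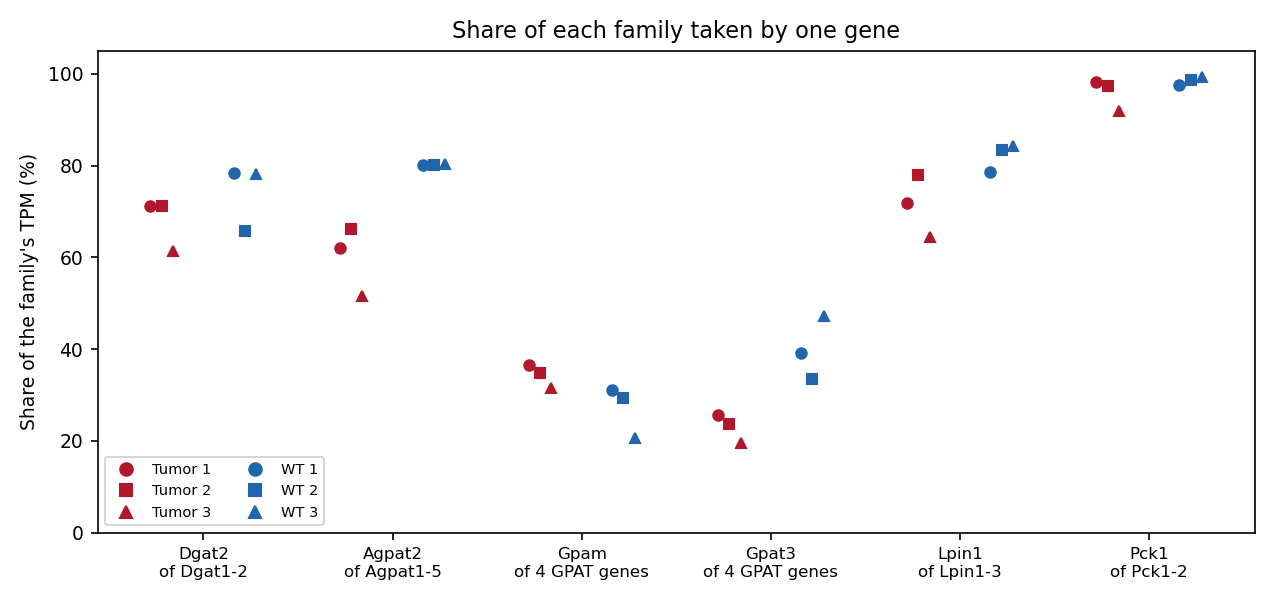
Share of the summed TPM of a gene family taken by 1 of its genes, in percent, with 1 point for each library (Tumor in red on the left, WT in blue on the right). The 3 WT points of Agpat2 lie on top of each other at 80.1% to 80.4% and the Tumor points at 51.7% to 66.1%, while the shares of Dgat2 and Pck1 overlap.

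Lpin1 encodes lipin 1, the phosphatidate phosphatase that turns phosphatidic acid into diacylglycerol in adipose tissue. It lies on chromosome 12 from 16535669 to 16610966, on the minus strand. Lpin1 measured 51.3, 51.8 and 23.9 TPM in the Tumor-labelled libraries and 60.5, 52.1 and 103 TPM in the WT-labelled ones. The groups did not overlap, but WT replicate 2 and Tumor replicate 2 were almost equal. The log2 difference was -0.77 (SE 0.40, limma adjusted p = 0.737), against -0.41 without Tumor replicate 3 and -0.48 without WT replicate 3. Lpin1 took 71.7%, 77.9% and 64.4% of the TPM of the 3 lipin genes in the Tumor-labelled libraries and 78.6%, 83.5% and 84.4% in the WT-labelled ones. Lpin2 averaged 9.10 ± 1.70 TPM in the Tumor-labelled libraries and 7.34 ± 2.63 TPM in the WT-labelled ones (SD, n = 3 each).

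The last acylation is done by Dgat1 or Dgat2, which are unrelated in sequence. Dgat2, on chromosome 7 from 99153658 to 99182719 on the minus strand, is the one linked to newly made fatty acids. It measured 587, 512 and 185 TPM in the Tumor-labelled libraries and 852, 601 and 1344 TPM in the WT-labelled ones. The lowest WT library and the highest Tumor library were close, and WT replicate 3 lay far above the other 5 libraries. The log2 difference was -1.21 (SE 0.53, limma adjusted p = 0.737), against -0.69 without Tumor replicate 3 and -0.68 with the skeletal muscle covariate. Dgat1, on chromosome 15 from 76502015 to 76511953 on the minus strand, measured 238, 208 and 116 TPM in the Tumor-labelled libraries and 236, 312 and 378 TPM in the WT-labelled ones. Its groups overlapped, with WT replicate 1 just below Tumor replicate 1, and its log2 difference was -0.75 (SE 0.33, limma adjusted p = 0.737), or -0.44 without Tumor replicate 3. Dgat2 made up 71.1%, 71.1% and 61.4% of the pair in the Tumor-labelled libraries and 78.3%, 65.8% and 78.1% in the WT-labelled ones, with overlap.

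The droplet-forming genes had overlapping groups, as had Pck1, Gpam, Agpat3 and Dgat1. Bscl2 encodes seipin, the membrane protein at which droplets form, and lies on chromosome 19 from 8837467 to 8848683 on the plus strand. It measured 277, 229 and 118 TPM in the Tumor-labelled libraries and 271, 251 and 402 TPM in the WT-labelled ones, with overlap. Its log2 difference was -0.62 (SE 0.38, limma adjusted p = 0.737), or -0.26 without Tumor replicate 3 and -0.41 without WT replicate 3. A read-through gene on the same strand, AC129217.1, shares 3671 bases with Bscl2 and was listed at 15.3 TPM at most, so that reads of the pair may have been divided. Fitm2, which helps droplets to bud, lies on chromosome 2 from 163466379 to 163472629 on the minus strand. It measured 65.9, 49.6 and 18.2 TPM in the Tumor-labelled libraries and 39.6, 45.4 and 75.2 TPM in the WT-labelled ones. Tumor replicate 1 and WT replicate 3, both poor in lymphoid RNA, were the highest of the 6. The log2 difference was -0.38 (SE 0.51, limma adjusted p = 0.829), with a 95% interval of -1.64 to 0.87. Leaving out Tumor replicate 3 gave 0.15, leaving out Tumor replicate 1 gave -0.75, and leaving out WT replicate 3 gave -0.11.

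**Figure D3:**
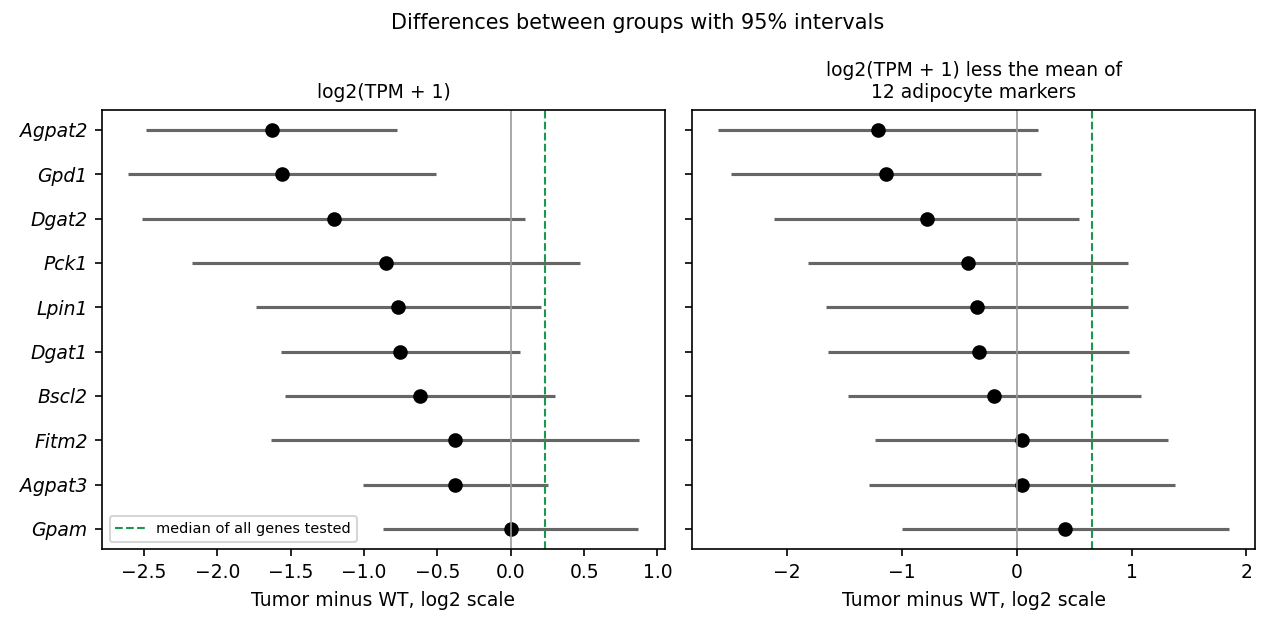
Log2 difference, Tumor minus WT, with its 95% interval for each gene, on log2(TPM + 1) at the left and after taking away the mean log2 level of 12 adipocyte markers of the same library at the right. The dashed line is the median of all genes tested, 0.23 at the left and 0.66 at the right. Agpat2 and Gpd1 are the lowest at the left. The right panel moves every difference by the same amount, so the order of the genes cannot change.

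The levels were also set against the adipocyte content of each library. The 10 genes together came to 7.05%, 8.96% and 9.84% of the summed TPM of the 12 adipocyte markers in the Tumor-labelled libraries and to 13.6%, 12.3% and 11.98% in the WT-labelled ones. The adipocyte marker sums themselves overlapped. Cfd and Fabp4 made up most of these sums, with Tumor means of 15170 and 8618 TPM in a mean sum of 31435 TPM. Their WT means were 19472 and 12820 TPM, in a mean sum of 41876 TPM. On the log2 scale less the mean of the 12 markers, Agpat2 measured -1.74, -1.30 and -0.74 in the Tumor-labelled libraries and 0.27, 0.071 and -0.51 in the WT-labelled ones. Gpd1 measured -1.37, -1.30 and -0.87 in the Tumor-labelled libraries and 0.19, 0.13 and -0.45 in the WT-labelled ones. Dgat2 measured -1.18, -1.02 and -0.81 in the Tumor-labelled libraries and 0.072, -0.47 and -0.26 in the WT-labelled ones. In these 3 of the 10 genes every Tumor-labelled library lay below every WT-labelled library on this scale, as for 0.382% of all genes tested. In the other 7 the groups overlapped. The difference on this scale was -1.21 for Agpat2 (SE 0.63, limma adjusted p = 0.746), -1.14 for Gpd1 (SE 0.61, limma adjusted p = 0.746) and 0.42 for Gpam (SE 0.64, limma adjusted p = 0.746). This scale raises the Tumor minus WT difference of every gene by the same amount, so it cannot change the order of the genes. Divided by each of the 12 markers alone, Agpat2 and Gpd1 separated the groups with 9 markers and overlapped with Plin1, Plin4 and Lep. Dgat2 separated the groups with 7 markers, Pck1 and Fitm2 with 2, Gpam, Lpin1, Dgat1 and Bscl2 with 1, and Agpat3 with 0. Of these, Gpam over Retn was higher in the Tumor-labelled libraries, and Fitm2 was higher with 1 marker and lower with the other.

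**Figure D4:**
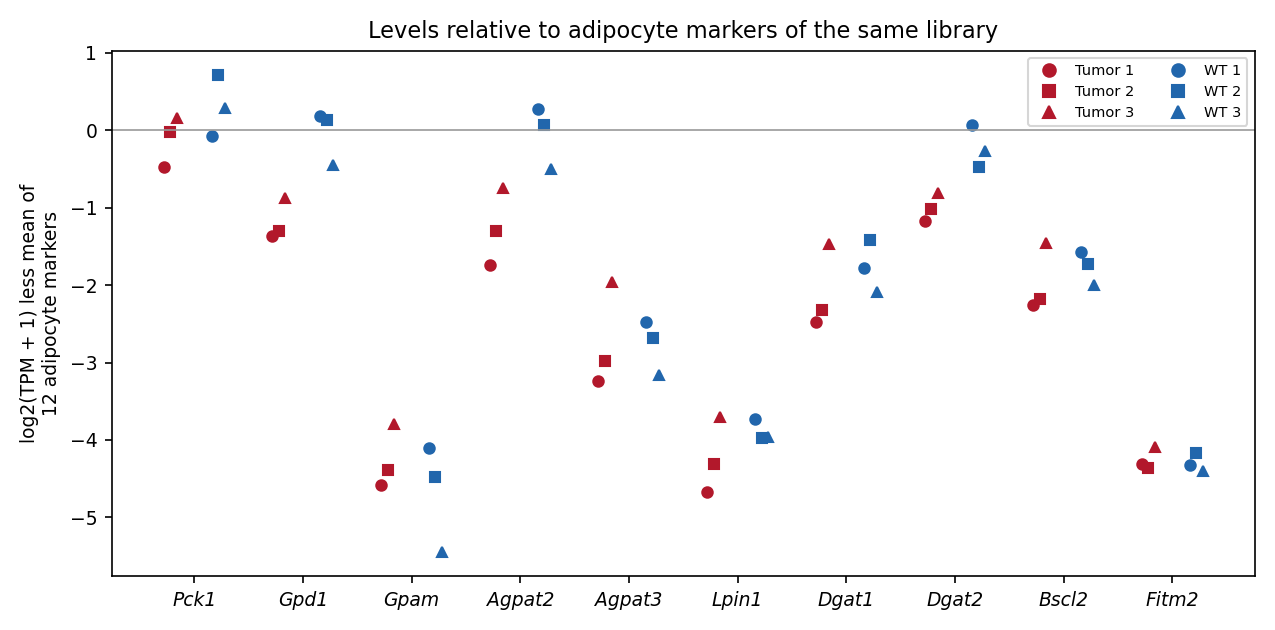
Log2(TPM + 1) of each gene less the mean log2(TPM + 1) of 12 adipocyte markers in the same library, with 1 point for each library (Tumor in red on the left, WT in blue on the right). The points of Gpd1, Agpat2 and Dgat2 do not overlap between the groups, and those of the other 7 genes do.

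Gpd1 and Gpam, which supply and use the same backbone, give a comparison within each library, chosen after the values were seen. There were 9.42, 8.63 and 7.91 Gpd1 transcripts for each of Gpam in the Tumor-labelled libraries and 20.1, 25.1 and 32.8 in the WT-labelled ones. The ratio averaged 8.65 ± 0.754 in the Tumor-labelled libraries and 26.0 ± 6.41 in the WT-labelled ones (SD, n = 3 each).

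Within the 2 libraries poor in lymphoid RNA, 1 of each group, Agpat2 in the Tumor library was 34.9% of that in the WT library, Gpd1 43.6% and Dgat2 43.7%. Gpam was 152%, and the adipocyte marker sum was 82.0%. These values rest on 1 library a group and carry no test. Within the 4 rich libraries the Tumor mean of Agpat2 was 33.3% of the WT mean, that of Gpd1 32.6%, that of Dgat2 48.0% and that of Gpam 86.5%, with the adipocyte marker sum at 69.4%. In the 4 libraries the log2 difference was -1.69 for Agpat2 (limma adjusted p = 0.441) and -1.74 for Gpd1 (limma adjusted p = 0.447), with 6 of the 10 genes lower without overlap, as for 7.85% of all genes tested there. In that fit limma passed 0 of 13676 genes, with 1213 at an unadjusted p below 0.05.

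Markers of brown fat cells moved with the groups beside Gpd1 and Agpat2, both of which brown fat also expresses. The 7 markers summed to 279, 401 and 252 TPM in the Tumor-labelled libraries and to 867, 2413 and 866 TPM in the WT-labelled ones, without overlap. Of the 7, 6 were tested, all 6 had a negative difference, against 23.2% of all genes, and in 4 every Tumor-labelled library lay below every WT-labelled library, against 3.24% of all genes. None of the 7 was listed at 0 in any library. Ucp1 measured 0.383, 2.21 and 2.27 TPM in the Tumor-labelled libraries and 71.1, 507 and 15.7 TPM in the WT-labelled ones. The part of these cells in the differences was not tested.

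Other genes of the pathway did not share one direction. Of 18 others listed, Gpat2 and Mogat2 did not pass the filter on low values and 16 were tested. Of the 16, 0 passed limma's test, and 9 had a negative and 7 a positive difference, against 23.2% negative over all genes. The median was -0.065, against 0.23 over all genes. With median-ratio or upper-quartile factors 11 were negative, against 44.6% and 42.0% of all genes, and relative to the adipocyte markers 5, against 5.44%. In 3 of them (Gpat3, Gpd2 and Pcx) every Tumor-labelled library lay below every WT-labelled library, against 3.24% of all genes. Pcx, pyruvate carboxylase, which feeds glyceroneogenesis and fatty acid synthesis with oxaloacetate, measured 304, 268 and 112 TPM in the Tumor-labelled libraries and 467, 318 and 712 TPM in the WT-labelled ones. Its log2 difference was -1.17 (SE 0.48, limma adjusted p = 0.737). Aqp7, the channel through which adipocytes release glycerol, averaged 63.0 ± 38.7 TPM in the Tumor-labelled libraries and 70.4 ± 40.9 TPM in the WT-labelled ones (SD, n = 3 each). Mogat1, a monoacylglycerol acyltransferase, averaged 19.6 ± 11.0 TPM in the Tumor-labelled libraries and 34.6 ± 11.9 TPM in the WT-labelled ones. Pck2, the mitochondrial carboxykinase, averaged 26.4 ± 6.89 TPM in the Tumor-labelled libraries and 17.2 ± 2.35 TPM in the WT-labelled ones.

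Phosphatidic acid and diacylglycerol also feed the phospholipids of membranes. Of 11 genes of that branch 0 passed limma's test, and 5 had a negative and 6 a positive difference, against 23.2% negative over all genes. The median was 0.12, against 0.23 over all genes. In 2 of the 11, Chpt1 and Pcyt2, every Tumor-labelled library lay below every WT-labelled library, as for 3.24% of all genes tested. Chpt1, which joins choline to diacylglycerol, measured 431, 365 and 146 TPM in the Tumor-labelled libraries and 624, 499 and 766 TPM in the WT-labelled ones (log2 difference -1.12, SE 0.45, limma adjusted p = 0.737). Pcyt2 encodes an enzyme of phosphatidylethanolamine synthesis. It measured 63.8, 85.2 and 85.4 TPM in the Tumor-labelled libraries and 86.5, 91.9 and 101 TPM in the WT-labelled ones. Tumor replicate 3 and WT replicate 1 were thus almost equal. The log2 difference of Pcyt2 was -0.26 (SE 0.18, limma adjusted p = 0.737). Relative to the adipocyte markers it was 0.16, and the groups overlapped. Cept1, which does the same reaction for choline and ethanolamine, averaged 50.9 ± 4.05 TPM in the Tumor-labelled libraries and 43.7 ± 5.76 TPM in the WT-labelled ones (SD, n = 3 each). Cds2, which takes phosphatidic acid towards phosphatidylinositol, measured 24.4, 28.4 and 29.4 TPM in the Tumor-labelled libraries and 23.9, 18.6 and 24.1 TPM in the WT-labelled ones, the 1 gene of the branch that was higher without overlap, as for 11.8% of all genes tested. With median-ratio factors the log2 difference of Cds2 was 0.08, against 0.30 on the scale used, and the groups overlapped, as they did with upper-quartile factors and relative to the adipocyte markers. Of the 11 genes of the branch 7 were negative with either factor, against 44.6% and 42.0% of all genes. Relative to the adipocyte markers 2 were, against 5.44%.

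The 10 genes differed in how closely each followed their common profile, the mean of their standardised levels. Over the 6 libraries Bscl2 lay closest to it (Pearson r = 0.991) and Gpam farthest (r = 0.640), each gene being part of the mean itself. Among 8818 other genes with a mean of at least 10 TPM, the 5 nearest to the profile were Acsl1, Mrap, Cspg4, Alad and Mlf2, with r of 0.995 to 0.998 over the 6 libraries. Acsl1, which activates fatty acids for these acyltransferases, measured 452, 432 and 145 TPM in the Tumor-labelled libraries and 524, 492 and 850 TPM in the WT-labelled ones. These correlations describe 6 libraries that also share their adipocyte content, and carry no test.

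The promoter sequences of 3 of the genes are shown: Agpat2 with the largest difference, Pck1 with the highest level and Gpam with the smallest difference. They come from RefSeq on GRCm38.p6, which here held 10 windows for 7 of the 10 genes, and give the 250 bases before the RefSeq start, 5′ to 3′ on the strand of the gene. Capitals mark matches on either strand to 6 short motifs: GGGCGG (the GC box), TGACG (the half-site of the cAMP response element), CCAAT (the CCAAT box), AGGTCA (the nuclear receptor half-site), CACGTG (the E box) and TATAAA (the TATA box).
Agpat2, chr2:26604418-26604667, minus strand: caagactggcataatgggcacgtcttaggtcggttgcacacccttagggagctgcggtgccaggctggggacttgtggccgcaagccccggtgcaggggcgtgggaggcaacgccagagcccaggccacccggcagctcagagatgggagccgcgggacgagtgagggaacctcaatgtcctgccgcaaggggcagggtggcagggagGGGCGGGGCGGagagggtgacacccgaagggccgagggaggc
Pck1, chr2:173152823-173153072, plus strand: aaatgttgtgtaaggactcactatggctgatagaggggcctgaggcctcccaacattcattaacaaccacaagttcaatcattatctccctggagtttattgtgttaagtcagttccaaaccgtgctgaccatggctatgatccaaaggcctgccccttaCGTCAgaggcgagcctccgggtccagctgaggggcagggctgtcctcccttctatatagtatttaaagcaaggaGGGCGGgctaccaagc
Gpam, chr19:55127239-55127488, minus strand: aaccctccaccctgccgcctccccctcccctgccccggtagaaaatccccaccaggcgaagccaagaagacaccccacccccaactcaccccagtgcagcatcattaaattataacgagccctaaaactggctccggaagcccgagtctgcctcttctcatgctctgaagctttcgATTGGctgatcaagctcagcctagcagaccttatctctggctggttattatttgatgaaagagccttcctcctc

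The Agpat2 window is 69.2% G and C with 16 CpG pairs, against medians of 52.4% and 6 over all 32851 windows, and holds 2 GC boxes that overlap by a base, 42 and 37 bases before the start. The Pck1 window is 50.8% G and C with 5 CpG pairs. It holds the half-site of the cAMP response element, read on the other strand as CGTCA, 90 bases before the start, and a GC box 16 bases before it. The window ends at 173153072, past the GENCODE start at 173153048, so this GC box lies inside the gene as GENCODE places it. The cAMP response element of Pck1 is a textbook case of gene control by glucagon and adrenaline. The Gpam window, 1 of 2 listed for the gene, is 54.8% G and C and holds 1 CCAAT box, read as ATTGG, 74 bases before the start. The other Gpam window, not printed, begins at 55099478 and is 66.0% G and C with 21 CpG pairs. It holds a GC box, 2 cAMP half-sites and a nuclear receptor half-site. Of all 32851 windows 32.7% held a GC box, 17.8% the cAMP half-site, 33.8% a CCAAT box, 14.0% a nuclear receptor half-site, 6.02% an E box and 12.4% a TATA box. None of the 3 printed windows held the last 3 of these. Such matches are of letters alone, and the files hold no measure of binding.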

How the data were processed

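RNA of subcutaneous white adipose tissue was sequenced in 6 libraries, 3 titled Tumor and 3 titled WT. Per the labels' protocols RNA integrity was above 7, poly-A RNA was selected and libraries were made with TruSeq chemistry. The genome build was GRCm38.p6 per the submitters' processing notes, which also list DESeq2 in a role they do not state. The titles of the libraries carry the words forward strand. The sources used here name neither aligner nor counting tool, nor do they say whether counting used strand. The authors deposited 1 table, named as raw counts, whose values are TPM: they are not whole and each column sums to 1000000. Read depth is therefore not known, and a rise of other transcripts lowers these. Column names were matched to the description labels.

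Groups were compared on log2(TPM + 1) in limma (version 3.58.1, R version 4.3.3) with trend and robust moderation and group alone, on 14144 genes that reached 1 TPM in 3 or more libraries, with Benjamini-Hochberg adjustment and a threshold of 0.05. Log2 differences are on that scale. The titles call the replicates biological. Nothing says that each is a separate animal. The p-values set a group difference against the spread between these samples, as moderated by limma over all genes tested. The procedure was tested on simulated data. The 10 genes and all lists were chosen with earlier results of these data known. All 10 genes, members of the pathway lists and the 5 genes nearest in profile could be named. Alternatives were other pseudocounts (0.1 and 0.5), filters, scalings, covariates, a replicate block and left-out libraries. Positions are from GENCODE M21. Same-numbered libraries were not treated as pairs. Overlapping genes on the other strand (at Agpat2, Egfl7 over 64 bases with up to 233 TPM and Gm20532 with up to 1.28 TPM, and others) could share reads. Python 3.11.15 with numpy 2.4.6, pandas 2.3.3 and matplotlib 3.10.9 made the summaries and figures.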

Additional observations from a re-analysis of the deposited data

How the results depend on the processing

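Of 20 alternative settings, 19 called 0 genes of the table. With the B and plasma cell covariate 1 gene passed limma's test, Gm11594 (log2 difference -3.03, adjusted p = 0.0324), named after its value was seen. The 10 genes had 0 calls in all 20 settings, as had the other genes of the pathway. The median difference of the 10 was negative in all 20 and ran from -0.98 with median-ratio factors to -0.34 relative to the adipocyte markers. Settings of moderation, filter and replicate block cannot move this median. The median was -0.96 with upper-quartile factors, -0.50 with the adipocyte covariate and -0.95 to -0.39 with a library left out. Median-ratio factors moved the median of all genes to 0.038 and upper-quartile factors to 0.056, and 7 and 6 of the 10 then lay without overlap below WT, against 6.46% and 5.62% of all genes. This count was 4 to 6 with a library left out, against 3.79% to 6.75% of all genes (6 against 6.75% without Tumor replicate 1). The Gpd1 to Gpam ratio differed by -20.3 to -13.9 with a library left out. Gpam changed sign with the adipocyte (0.19), B and plasma cell (0.040) and muscle (0.17) covariates, without Tumor replicate 3 (0.39) or WT replicate 1 (0.11), its range with a library left out being -0.23 to 0.39, and relative to the adipocyte markers (0.42). Fitm2 did so without Tumor replicate 3 (0.15; -0.75 without Tumor replicate 1) and relative to the markers (0.043), and Agpat3 relative to the markers (0.047). The causes were not tested. Same-numbered libraries did not deviate together (r = -0.76, 0.20 and -0.84 over the genes tested). With the replicate block 0 genes passed, the smallest limma adjusted p being 0.985. The median of the 10 was -0.76 there, which a block on balanced groups cannot change. Precision is limited by 3 libraries a group and by depth that is not known.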
